A study of Mus musculus with 14 samples.

Results

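The genes described here encode the alpha chains from which collagens are built. They were taken as every gene whose mouse symbol reads Col, a type number, the letter a and a chain number, which gave 44 of the 52636 genes in the deposited table (52403 of which had a symbol). Of these 44 genes, 30 reached 1 CPM (counts of reads scaled to a common library total) in at least 2 of the 14 libraries and were tested, as part of 16157 genes tested in all. The libraries are bulk RNA sequencing of tMEF cells, mouse embryonic fibroblasts that have been transformed so that they keep dividing in culture. In all of them, per the labels, the telomere protein TRF1 of the mouse was replaced by TRF1 of the naked mole rat (NMR) or by a mutant of it. The GLAD mutant carries Glu69Lys, Val70Ala and Ala75Thr, the TIN mutant carries Ala105Thr, and the double mutant GLAD/TIN carries both sets. For each mutant there are cells kept in atmospheric oxygen, called normoxia here, and cells kept in 1% oxygen, called hypoxia. Wild-type NMR TRF1 was sampled in normoxia only, and there are 2 libraries (A and B) for each of the resulting 7 groups. Cells of all groups grew with 10% fetal calf serum. The labels do not say whether libraries A and B came from separate cultures, so the spread between them may be technical, and they do not say how the NMR protein was introduced or how many lines stand for a mutant.

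Collagen chains wind around each other into rope-like trimers, and the type number says which trimer a chain joins. Fibrillar collagens (types I, II, III, V, XI and others) assemble into the cable-like fibrils of connective tissue, type IV forms the mesh of basement membranes, and type VI forms beaded filaments around cells. Fibril-associated collagens with interrupted helices decorate fibril surfaces, and further types form hexagonal networks, anchoring fibrils or membrane-bound molecules. Fibroblasts are the main makers of types I, III, V and VI. The enzymes that hydroxylate prolines and lysines in the new chains use molecular oxygen, which is why collagen and low oxygen are often studied together.

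Reads per library, estimated from the steps between low CPM values, numbered 11917017 to 15023545, which puts the floor of 3 reads at 0.1997 to 0.2517 CPM, a limit from counting error only. Mouse Terf1, the gene of the replaced protein, had levels of 87.04 to 186.1 in the 14 libraries (104.5 and 87.39 in wild type), and whether reads of the introduced NMR gene count towards it was not tested. The names of the wild-type libraries in the table contain the word Mouse while their titles say NMR TRF1, so every comparison with wild type rests on the titles. The wild-type pair may also differ from the mutants in culture or handling that the labels do not give, and this cannot be told apart from genotype. Of 8 fibroblast markers 7 were measured, and their summed level was 5168 to 7542 in the 14 libraries. Thy1, a surface marker of fibroblasts, was at or below the floor (0 to 0.2018), and Dcn, the proteoglycan decorin that binds collagen fibrils, ran from 12.95 to 1334. In bulk RNA fewer cells of a kind and less RNA per cell cannot be told apart. Levels below are CPM divided by TMM factors, which align libraries on the bulk of their genes. A log2 difference compares log2(level + 0.5) between groups of 2 libraries and understates changes of low genes, SE is its standard error, and a gene was called where its Benjamini-Hochberg adjusted p from limma, over all genes tested, was under 0.05.

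The 44 genes together took 1.62% and 1.61% of all CPM in wild type, 1.07% and 1.12% in GLAD normoxia, 1.18% and 1.32% in GLAD hypoxia, 0.822% and 0.889% in double-mutant normoxia and 0.711% and 0.681% in double-mutant hypoxia. They took the least in TIN, with 0.569% and 0.539% in normoxia and 0.541% and 0.561% in hypoxia. The wild-type pair thus lay above all 12 mutant libraries, and the TIN libraries lay below all others. Fibrillar chains made up 80.7% and 81.4% of the collagen reads in wild type and 42.3% to 59.0% in the mutants. Beaded-filament chains made up 11.3% and 11.8% in wild type and 23.8% to 32.1% in the mutants, and basement-membrane chains 2.27% and 2.82% in wild type and 5.90% to 17.1% in the mutants. These shares count reads, so long chains weigh more. Per kilobase of exon, the most abundant chains on average over the 14 libraries were Col1a1 (339 scaled CPM per kb) and Col6a1 (228). They were followed by Col5a2 (91.4), Col1a2 (88.6), Col6a3 (72.4), Col3a1 (68.6), Col5a1 (66.0), Col6a2 (52.4) and Col4a1 (50.4). The lengths join all annotated exons of a gene (6563 bases for Col1a1 and 12426 for Col1a2), so this order depends on the annotation.

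**Figure D1:**
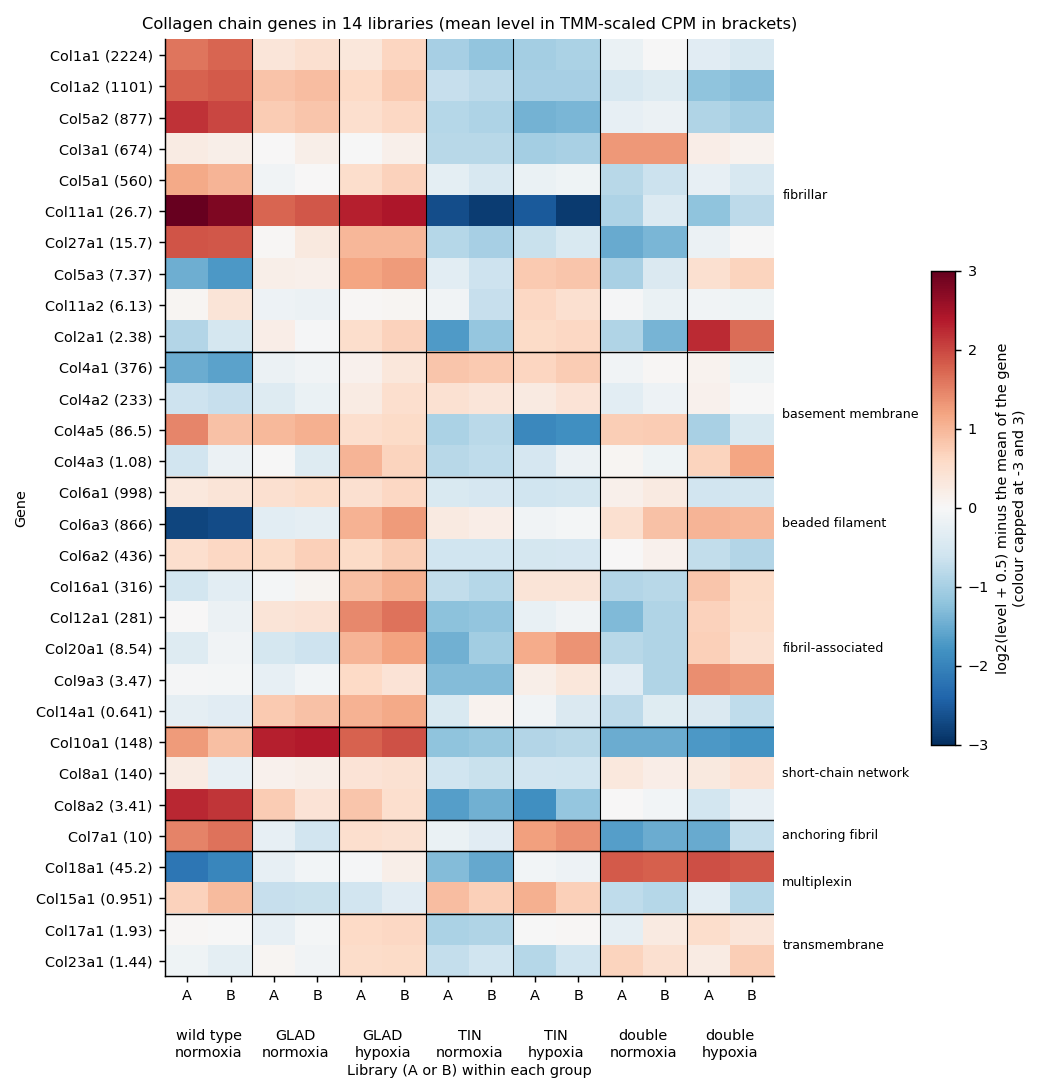
Rows are the 30 measured collagen genes by class (mean level in brackets), columns the 14 libraries, and the colour is log2(level + 0.5) minus the gene's mean over the 14 libraries. Col1a1, Col1a2, Col5a2, Col11a1 and Col27a1 are highest in the wild-type pair, and Col6a3 and Col18a1 are lowest there.

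Of the 44 genes, 14 were not measured, and no library had more than 1.4 CPM of any of them. They were fibrillar Col24a1, basement-membrane Col4a4 and Col4a6, the type VI chains Col6a4, Col6a5 and Col6a6, the fibril-associated Col9a1, Col9a2, Col19a1 and Col22a1, the membrane-bound Col13a1 and Col25a1, and Col26a1 and Col28a1. Just outside the filter lay Col4a6 (second-highest library 0.949 CPM) and Col28a1 (0.85 CPM), and just inside it lay Col14a1 (1.65 CPM) and Col15a1 (1.90 CPM). Of the 30 measured genes 21 had at least 1 CPM in all 14 libraries, and the other 9 in 4 to 13 of them. A gene of those 9 could pass the filter through the groups in which it is high, so the counts below describe the measured genes and are also given for the 17 genes with a mean level of 20 or more. Col14a1 reached 1 CPM in the 4 GLAD libraries only, Col15a1 in the 6 wild-type and TIN libraries, and Col4a3 in the 4 hypoxic libraries of GLAD and the double mutant. These 3 genes are in the counts of calls and are otherwise described by their values alone.

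Against wild-type NMR TRF1 in normoxia, the fibrillar chains Col1a1, Col1a2, Col5a1, Col5a2, Col11a1 and Col27a1 were lower in each mutant, and the type VI chain Col6a3, the type IV chains Col4a1 and Col4a2, Col18a1 and Col5a3 were higher in each. In TIN 26 of 30 genes were called (86.7%, against 60.2% of all genes tested), 5 higher and 21 lower, where 31.4% of all genes were called higher and 28.8% lower. Their median log2 difference was -0.96, against 0.03 over all genes. In the double mutant 23 were called (76.7% against 56.9%), 7 higher and 16 lower, where all genes gave 28.2% and 28.6%, and the median was -0.45. GLAD had 19 called (63.3% against 55.2%), 10 higher and 9 lower, where all genes gave 26.9% and 28.3%, and the median was -0.01. Of the 17 abundant genes, 4 were higher and 13 lower in TIN, 5 and 10 in the double mutant, and 7 and 5 in GLAD.

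In all, 8 of 30 genes were lower in all 3 mutants (26.7%, against 13.4% of all genes tested): Col1a1, Col1a2, Col5a1, Col5a2, Col7a1, Col8a2, Col11a1 and Col27a1. The 5 named above were higher in all 3 (16.7% against 14.1%, near the share of all genes), and 5 were called in both directions (16.7% against 7.9%), namely Col2a1, Col3a1, Col10a1, Col12a1 and Col16a1. The wild-type pair lay above all 12 mutant libraries, hypoxia included, for 8 genes (26.7%, against 12.8% of all genes) and below all 12 for 5 (16.7% against 10.8%). The 3 comparisons share the wild-type libraries, so their directions are not independent of each other. Calls against wild type that end when 1 library is left out were Col4a2 in GLAD (adjusted p = 0.061 without GLAD normoxia B), Col2a1 in GLAD (0.10 without GLAD normoxia A) and in TIN (0.20 without TIN normoxia A), Col11a2 in TIN (0.17 without TIN normoxia B), and, in the double mutant, Col4a5 (0.37 without wild-type A) and Col9a3 (0.27 without double-mutant normoxia B).

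**Figure D2:**
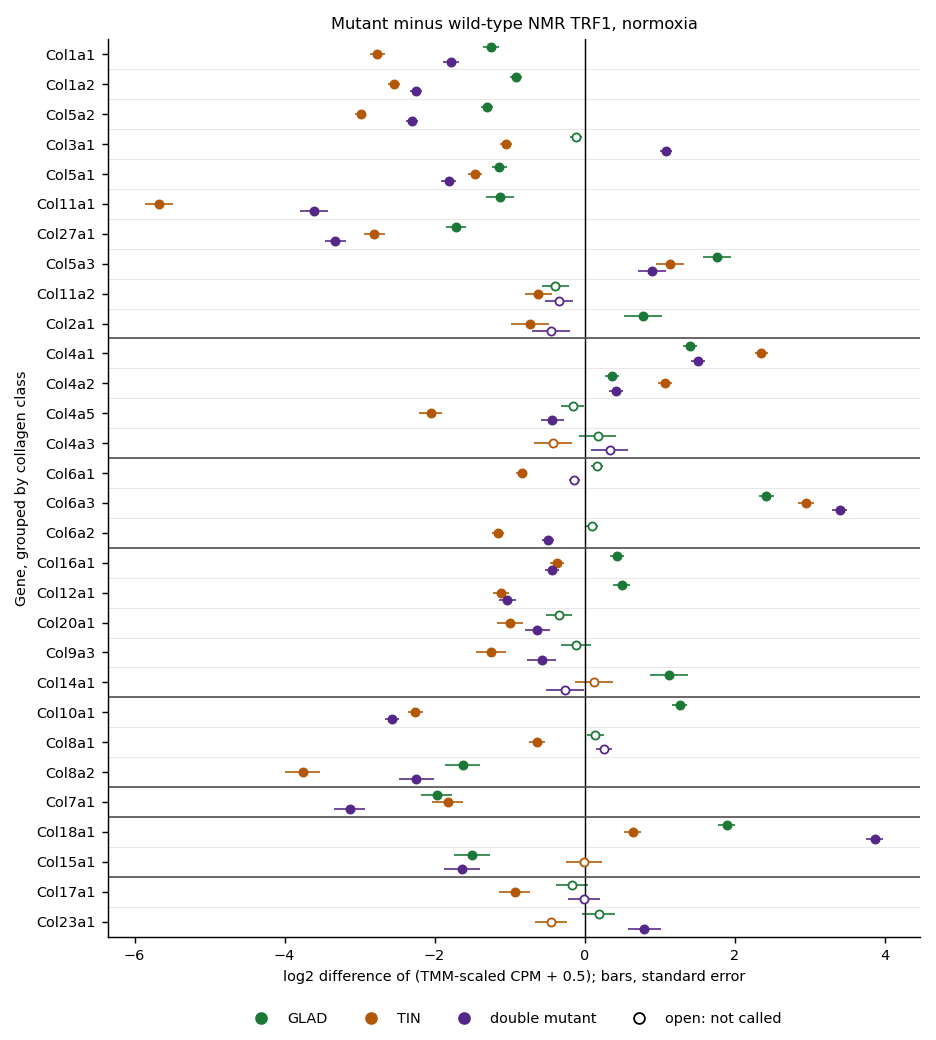
The x axis is the log2 difference of each mutant from wild-type NMR TRF1 in normoxia (bars, standard error; 2 libraries a group) and rows are the 30 measured genes by class. Filled points are called and open points are not; Col6a3 and Col18a1 lie right of 0 in all 3 mutants, and Col1a1, Col1a2, Col5a1, Col5a2, Col11a1 and Col27a1 lie left of 0.

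In hypoxia, 4 of the 5 measured fibril-associated chains rose in each mutant. The fibrillar chains Col1a2 and Col5a2 and the type IV chain Col4a5 fell in each (3 of 30, 10%, near the 11.1% of all genes). Other abundant fibrillar chains did not share this: Col1a1 and Col3a1 were called lower in the double mutant but not in GLAD or TIN, and Col5a1 rose in GLAD and the double mutant. Col12a1, Col16a1, Col20a1 and Col9a3, which are fibril-associated, and the fibrillar Col5a3 and Col27a1 were the 6 genes that rose in all 3 mutants (20%, against 10% of all genes). In GLAD 20 of 30 genes were called (66.7%, against 48.1% of all genes tested), 16 higher and 4 lower, where all genes gave 22.1% higher and 26% lower. The median of the measured collagen genes was 0.45, and that of all genes -0.04. Without GLAD hypoxia library A the count in GLAD was 13. In the double mutant 19 were called (63.3% against 56.1%), 11 higher and 8 lower, where all genes gave 25.8% and 30.2%, and the median was 0.10. TIN had 16 called (53.3% against 53.9%, so near the share of all genes), 12 higher and 4 lower, where all genes gave 25.6% and 28.3%, and the median was 0.09. Averaged over the 3 mutants, 22 were called (73.3% against 67.5%), 15 higher and 7 lower, where all genes gave 30.6% and 37%. The balance was different among the 17 abundant genes, of which 8 were higher and 4 lower in GLAD, 4 and 4 in TIN, 5 and 8 in the double mutant, and 6 and 7 on average.

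In 5 genes all 6 hypoxic libraries lay above all 6 normoxic libraries of the mutants (16.7%, against 7.58% of all genes). In 0 genes they lay below (against 7.93%), and in the other 25 they overlapped. Col6a3 and Col10a1 were called in both directions (6.67% against 8.37%). Hypoxia calls that end when 1 library is left out numbered 9 in GLAD, 4 in TIN and 6 in double-mutant cells. The ones among genes called in all mutants are Col1a2 in GLAD (adjusted p = 0.36 without GLAD hypoxia A) and in TIN (0.091 without TIN normoxia A), Col5a2 in GLAD (0.15 without GLAD hypoxia A), Col4a5 in GLAD (0.095 without GLAD normoxia B), Col9a3 in GLAD (0.080 without GLAD hypoxia A) and Col27a1 in TIN (0.24 without TIN hypoxia B). For these genes the statement that all 3 mutants changed therefore rests on single libraries.

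**Figure D3:**
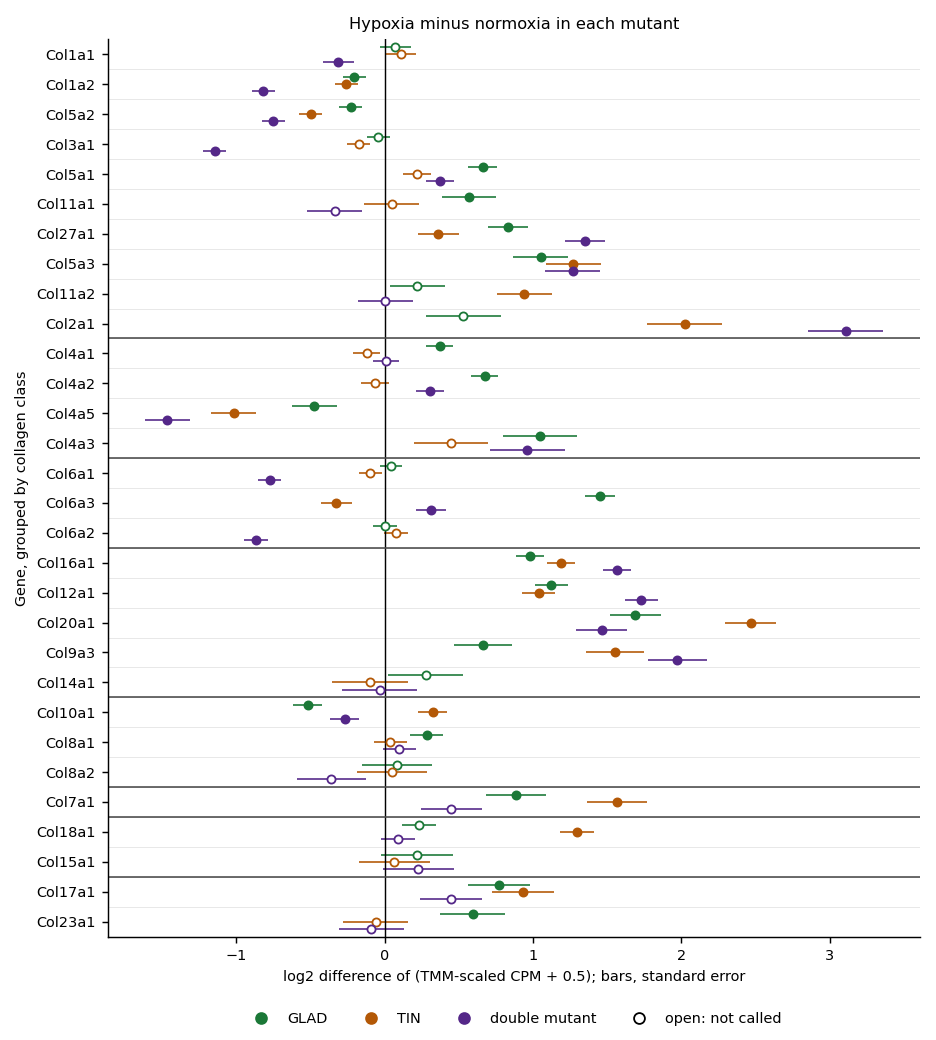
The x axis is the log2 difference of hypoxia from normoxia in each mutant (bars, standard error; 2 libraries a group) and rows are the 30 measured genes by class. Filled points are called and open points are not; Col12a1, Col16a1 and Col20a1 lie between 0.98 and 2.47 in all 3 mutants, and Col1a2, Col5a2 and Col4a5 lie left of 0.

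The hypoxia effects themselves differed between mutants for some chains. TIN minus GLAD was called for 10 of 30 genes (33.3% against 33.9% of all genes, so no more often than genes at large), 6 higher and 4 lower, where all genes gave 16.4% and 17.5%. The count was 6 with no filter on low values and 16 with only the groups compared in the fit. Double mutant minus GLAD was called for 12 (40% against 14.6%), 4 higher and 8 lower, where all genes gave 6.9% and 7.67%. Double mutant minus TIN was called for 16 (53.3% against 42.8%), 6 higher and 10 lower, where all genes gave 21.4% in each direction. Of the 17 abundant genes 2 were called higher and 4 lower for TIN minus GLAD, 2 and 8 for double mutant minus GLAD, and 4 and 7 for double mutant minus TIN. The double mutant's difference was below 0 and called against both other mutants for Col1a2, Col3a1, Col6a1 and Col6a2. It was above 0 and called against both for Col2a1, Col12a1 and Col16a1. Both differences use the double-mutant libraries, and the share of all genes called against both was not counted. Of the genes just named, Col12a1 against GLAD lost its call when 1 library was left out (log2 difference 0.39 without double-mutant normoxia A). So did Col2a1 (log2 difference 0.80) and Col16a1 (log2 difference 0.25) against TIN, each without double-mutant hypoxia A. The Col2a1 call against TIN also ended with a pseudocount of 0.1 (log2 difference 0.93, adjusted p = 0.18). It ended with limma's voom on estimated reads too (log2 difference 0.83, adjusted p = 0.39). Across all genes the TIN hypoxia effect also had a correlation with exon length (Spearman -0.21 over 16117 genes). This correlation was 0.08 for GLAD, 0.05 for the double mutant, -0.31 for TIN minus GLAD and 0.24 for double mutant minus TIN. The part of length in the differences between mutants was not tested beyond the next values. With the length and GC trend removed, 9 of 253 called effects of these genes over all comparisons lost their call. Among them were Col9a3 for TIN minus GLAD (adjusted p = 0.07), and Col16a1 (0.056) and Col2a1 (0.073) for double mutant minus TIN. Col6a3 in TIN hypoxia was another (0.054).

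Within normoxia the mutants also differed from each other, and TIN had the lowest collagen share. Against GLAD, TIN had 27 of 30 genes called (90% against 51.8% of all genes), 4 higher and 23 lower, where all genes gave 27.7% and 24.1%, and the median was -0.97. The 4 higher genes were Col4a1, Col4a2, Col6a3 and Col15a1. Col15a1 reached 1 CPM in wild-type and TIN libraries only, so its call is part of the count and is not read further. The double mutant against GLAD had 20 called (66.7% against 35.7%), 4 higher (Col3a1, Col6a3, Col18a1 and Col23a1) and 16 lower, where all genes gave 18.5% and 17.2%. The double mutant against TIN had 23 called (76.7% against 48.7%), 16 higher and 7 lower, where all genes gave 22.9% and 25.8%. Of the 17 abundant genes 3 were higher and 14 lower in TIN than in GLAD, 3 and 10 in the double mutant than in GLAD, and 11 and 4 in the double mutant than in TIN. Since each mutant may be a single line, a difference between mutants and a difference between lines cannot be told apart. In these 3 comparisons 14 calls ended under an alternative; among the genes just named, Col23a1 in the double mutant against GLAD gave an adjusted p of 0.19 without GLAD normoxia B.

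Among the fibrillar chains, Col1a1 and Col1a2 encode the chains of type I collagen, the main protein of tendon, skin and bone. Col1a1 had levels of 5472 and 6086 in wild type, 2340.2 and 2512 in GLAD normoxia, 2302 and 2816 in GLAD hypoxia, 901 and 802 in TIN normoxia, 896 and 935 in TIN hypoxia, 1567 and 1796 in double-mutant normoxia and 1419 and 1285 in double-mutant hypoxia. The wild-type pair lay above all other libraries and the TIN libraries below all others. The log2 difference from wild type was -1.25 (SE 0.10, adjusted p = 1.7e-08) in GLAD, -2.76 (SE 0.10, adjusted p = 6.0e-14) in TIN and -1.78 (SE 0.10, adjusted p = 8.8e-11) in the double mutant. Hypoxia left overlapping levels in GLAD (0.07, SE 0.10, adjusted p = 0.61) and TIN (0.11, SE 0.10, adjusted p = 0.40). In the double mutant Col1a1 fell by 0.31 (SE 0.10, adjusted p = 0.016), a call that ended without double-mutant normoxia B (-0.21, adjusted p = 0.17) or with no filter on low values (adjusted p = 0.070).

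Col1a2, the partner chain, had levels of 2858 and 2997 in wild type, 1513 and 1585 in GLAD normoxia, 1258 and 1435 in GLAD hypoxia, 518 and 486 in TIN normoxia, 419.96 and 418 in TIN hypoxia, 601 and 633 in double-mutant normoxia and 359 and 340.4 in double-mutant hypoxia. None of the 7 groups overlapped its neighbour in this order of levels. It fell in hypoxia by 0.20 in GLAD (adjusted p = 0.037), by 0.26 in TIN (adjusted p = 0.0090) and by 0.82 (SE 0.08, adjusted p = 6.7e-08) in the double mutant. The fall was larger in the double mutant than in GLAD by 0.61 (adjusted p = 0.0010) and than in TIN by 0.56 (adjusted p = 0.00059), and the difference TIN minus GLAD (-0.05) was not called (adjusted p = 0.73). Against wild type it fell by 0.92 in GLAD, 2.54 in TIN and 2.25 in the double mutant.

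Promoter windows of Col1a2 and Col16a1 are printed because these abundant chains went in opposite directions in hypoxia in every mutant, a choice made after their values were seen. They hold 250 bases before to 50 after the start site in RefSeq (GRCm38.p6, 5′ to 3′ on the gene's strand), and capitals mark ACGTG or GCGTG on either strand, the core that hypoxia-inducible factors are known to bind. The Col1a2 window is chr6:4505368-4505667 on the + strand.
Col1a2: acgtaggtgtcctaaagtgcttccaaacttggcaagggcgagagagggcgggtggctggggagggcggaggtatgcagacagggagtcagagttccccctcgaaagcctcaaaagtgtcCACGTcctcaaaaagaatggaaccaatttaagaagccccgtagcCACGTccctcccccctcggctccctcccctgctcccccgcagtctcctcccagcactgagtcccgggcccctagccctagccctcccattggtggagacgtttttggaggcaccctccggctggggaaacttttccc
The Col16a1 window is chr4:130047590-130047889 on the + strand.
Col16a1: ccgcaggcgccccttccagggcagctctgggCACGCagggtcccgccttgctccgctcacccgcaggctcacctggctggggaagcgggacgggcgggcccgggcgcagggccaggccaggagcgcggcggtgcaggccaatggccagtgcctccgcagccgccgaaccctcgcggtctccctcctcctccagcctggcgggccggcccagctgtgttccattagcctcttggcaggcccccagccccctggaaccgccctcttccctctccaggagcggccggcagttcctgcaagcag
Both windows hold the motif, with 2 matches in Col1a2, which fell, and 1 in Col16a1, which rose. Among 32851 RefSeq windows 43.8% hold it, counting overlapping matches, against 9 of 25 windows (36%) of the 23 measured collagen genes found there. Among the other genes that rose or fell in each mutant and were found there, the window of Col5a3, which rose, holds 2 matches. Those of Col20a1 and Col27a1, which rose, and of Col4a5, which fell, hold no match. Of the 30 measured genes Col1a1, Col2a1, Col4a3, Col5a2, Col9a3, Col12a1 and Col14a1 were not matched.

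Col3a1 encodes the chain of type III collagen, which forms fibrils with type I in skin and vessels. It had levels of 706 and 678 in wild type, 605 and 677 in GLAD normoxia, 586 and 658 in GLAD hypoxia, 336 and 333 in TIN normoxia, 292 and 301 in TIN hypoxia, 1457 and 1477 in double-mutant normoxia and 687 and 639 in double-mutant hypoxia. The double-mutant normoxia pair lay above all other libraries, and wild type, GLAD and double-mutant hypoxia fell in one range. The log2 difference from wild type was 1.08 (SE 0.08, adjusted p = 1.4e-09) in the double mutant, -1.05 (SE 0.08, adjusted p = 1.4e-09) in TIN and -0.11 in GLAD (adjusted p = 0.23). Hypoxia lowered it in the double mutant by 1.15 (SE 0.08, adjusted p = 7.6e-10), while the differences of -0.04 in GLAD and -0.17 in TIN were not called (adjusted p = 0.68 and 0.065). The double mutant's hypoxia effect differed from that of GLAD by -1.10 (adjusted p = 3.5e-06) and from that of TIN by -0.97 (adjusted p = 2.7e-06).

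**Figure D4:**
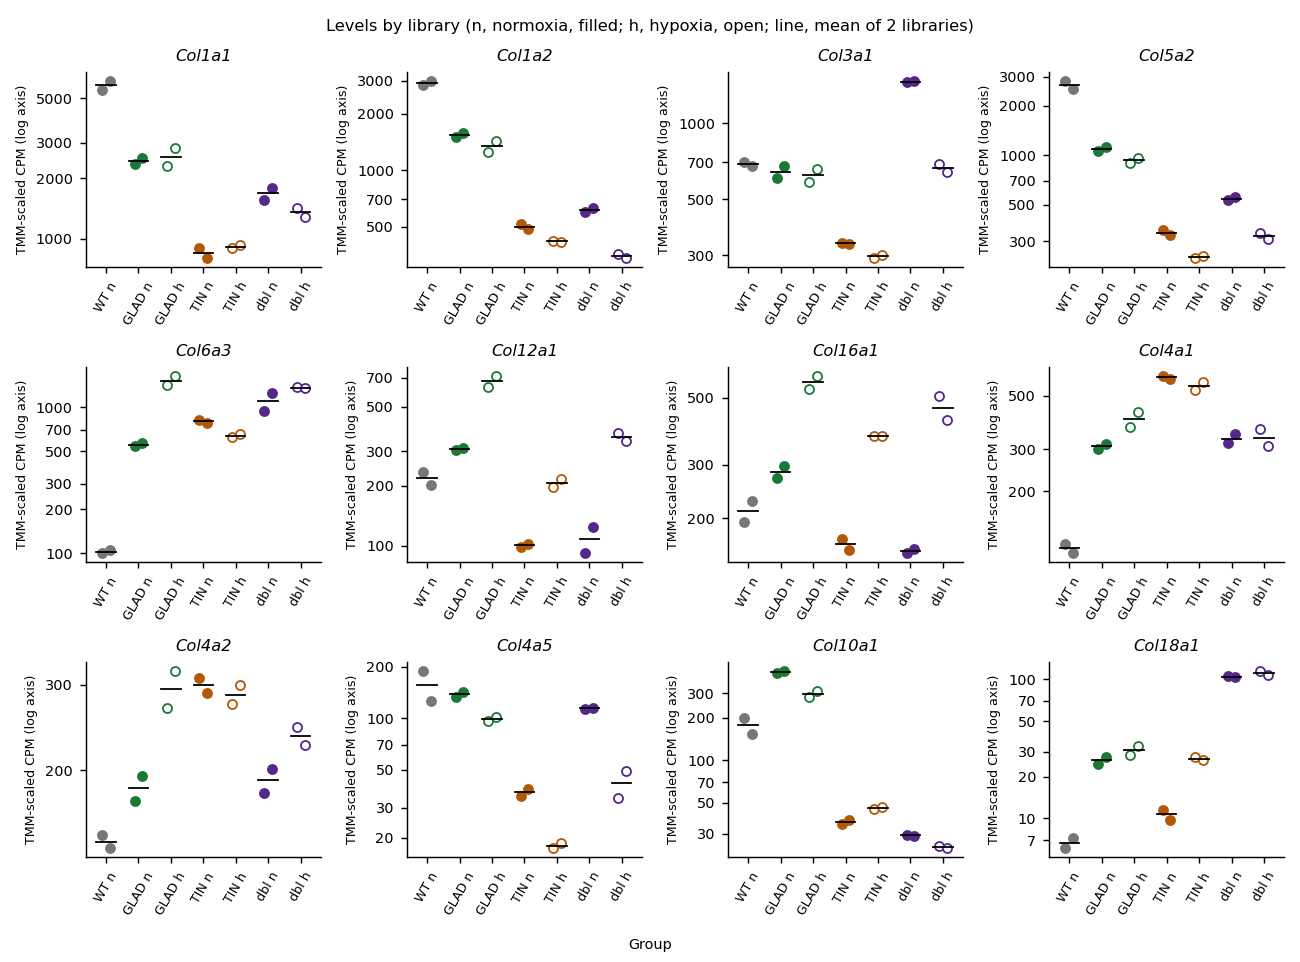
Each panel gives the level of 1 gene (TMM-scaled CPM, log axis) in the 14 libraries by group, filled for normoxia and open for hypoxia, with a line at the mean of the 2 libraries. Col1a1, Col1a2 and Col5a2 are highest in the wild-type pair, Col6a3, Col4a1 and Col18a1 are lowest there, Col3a1 stands out in double-mutant normoxia, and Col12a1 and Col16a1 are higher in hypoxia in each mutant.

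Type V collagen sits in the core of type I fibrils and sets their diameter; its chains here are Col5a1, Col5a2 and Col5a3. Col5a2 had levels of 2830.1 and 2534 in wild type, 1056 and 1118 in GLAD normoxia, 895 and 960.2 in GLAD hypoxia, 348 and 327 in TIN normoxia, 236 and 242 in TIN hypoxia, 533 and 553 in double-mutant normoxia and 335 and 311 in double-mutant hypoxia. Its pattern resembled that of Col1a2, with wild type above all other libraries and each hypoxic pair below the normoxic pair of its mutant. Hypoxia lowered Col5a2 by 0.23 in GLAD (adjusted p = 0.020), 0.50 in TIN (adjusted p = 2.8e-05) and 0.75 in the double mutant (adjusted p = 1.7e-07). Against wild type the log2 differences of Col5a2 were -1.30 (SE 0.08) in GLAD, -2.99 (SE 0.08) in TIN and -2.30 (SE 0.08) in the double mutant.

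Col5a1 went up in hypoxia where it was called. Its levels were 1135 and 1035 in wild type, 474 and 512 in GLAD normoxia, 738 and 822 in GLAD hypoxia, 420.4 and 369 in TIN normoxia, 445 and 469.8 in TIN hypoxia, 288 and 329.9 in double-mutant normoxia and 432 and 369.5 in double-mutant hypoxia. It rose in GLAD by 0.66 (SE 0.10, adjusted p = 1.8e-05) and in the double mutant by 0.37 (SE 0.10, adjusted p = 0.0027), and the latter call ended without double-mutant hypoxia A (adjusted p = 0.060). In TIN its difference of 0.22 was not called (adjusted p = 0.065). Against wild type Col5a1 fell by 1.14 in GLAD, 1.46 in TIN and 1.81 in the double mutant, and the wild-type pair lay above all 12 mutant libraries.

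Col5a3 was low, with levels of 1.86 and 1.49 in wild type, 6.98 and 6.82 in GLAD normoxia, 4.796 and 3.77 in TIN normoxia and 2.84 and 4.398 in double-mutant normoxia. In hypoxia its levels were 14.3 and 15.4 in GLAD, 10.8 and 11.2 in TIN and 8.597 and 9.93 in the double mutant, above all normoxic libraries. It rose in each mutant, by 1.05, 1.27 and 1.27 in that order (adjusted p = 0.00014, 1.6e-05 and 1.3e-05). Unlike its partner chains Col5a1 and Col5a2, it was higher than wild type in each mutant, by 1.77 in GLAD, 1.13 in TIN and 0.90 in the double mutant.

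Col11a1 encodes a chain of type XI collagen, a fibril nucleator best known from cartilage. It had the widest range of the measured genes with a mean of 20 or more, at 89.3 and 73.6 in wild type, 35.1 and 38.6 in GLAD normoxia, 53.1 and 56.6 in GLAD hypoxia, 1.199 and 0.992 in TIN normoxia, 1.36 and 0.958 in TIN hypoxia, 5.13 and 7.496 in double-mutant normoxia and 4.09 and 5.65 in double-mutant hypoxia. Wild type and GLAD were high, the double mutant intermediate and TIN near 1 CPM. Against wild type it fell by 5.68 (SE 0.18, adjusted p = 7.0e-15) in TIN, by 3.60 (adjusted p = 1.3e-11) in the double mutant and by 1.13 (adjusted p = 5.7e-05) in GLAD. In hypoxia it rose in GLAD by 0.57 (adjusted p = 0.017, and 0.11 without GLAD normoxia A), and was not called in TIN or the double mutant (adjusted p = 0.85 and 0.13). The other type XI chain here, Col11a2, ranged only from 3.52 to 9.44 and was called in hypoxia in TIN alone (0.94, SE 0.18, adjusted p = 0.00029).

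Col27a1, a fibrillar chain of cartilage and other tissues, had levels of 44.8 and 43.8 in wild type and 12.03 and 14.3, 6.25 and 5.61 and 3.76 and 4.198 in normoxic GLAD, TIN and double mutant. In hypoxia the values were 23.9 and 23.6, 7.13 and 8.42 and 10.3 and 11.5, each pair above its normoxic pair. It rose by 0.83 in GLAD, 0.36 in TIN and 1.35 in the double mutant (adjusted p = 6.8e-05, 0.032 and 1.5e-07). Against wild type it fell by 1.72, 2.80 and 3.32 in the same order.

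Col2a1, the chain of type II collagen of cartilage, was low throughout and rose in hypoxia in 2 mutants. Its levels were 0.656 and 0.974 in wild type, 1.93 and 1.57 in GLAD normoxia, 2.56 and 2.92 in GLAD hypoxia, 0.14998 and 0.447 in TIN normoxia, 2.66 and 2.72 in TIN hypoxia, 0.636 and 0.29998 in double-mutant normoxia and 9.53 and 6.25 in double-mutant hypoxia. The double-mutant hypoxia pair lay above all other libraries. It rose by 3.11 (SE 0.25, adjusted p = 9.0e-09) in the double mutant and by 2.02 (SE 0.25, adjusted p = 2.8e-06) in TIN, and the GLAD difference of 0.53 was not called (adjusted p = 0.095). The normoxic levels of TIN and the double mutant lie near the floor of 3 reads, where a log2 difference depends on the pseudocount: it was 3.85 in the double mutant and 2.92 in TIN with a pseudocount of 0.1, and 4.15 and 3.32 with voom on estimated reads.

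Of 8 chondrocyte markers 3 were measured (Sox9, Acan and Comp), and Matn1, Matn3, Cnmd, Hapln1 and Snorc did not pass the filter, with 0 in 7, 9, 9, 3 and 11 libraries. The list's summed level was 14.3 to 16.8 in GLAD normoxia and 20.9 to 23.4 in GLAD hypoxia, 17.8 to 19.0 and 21.1 to 21.5 in TIN, 9.04 to 9.15 and 16.9 to 17.3 in the double mutant, and 14.6 to 16.0 in wild type. It was thus higher in hypoxia in each mutant. Most of the sum was Sox9. Acan group means were 1.287 in normoxia and 5.207 in hypoxia in GLAD, 0.3492 and 1.434 in TIN, and 1.139 and 1.196 in double-mutant cells. Comp had 1.869 and 1.89 in GLAD, 1.17 and 1.988 in TIN, and 0.8594 and 0.6922 in double-mutant cells. Of the chains known from cartilage, Col9a3 and Col27a1 rose in each mutant and Col2a1 in TIN and the double mutant. Col11a1 rose in GLAD and Col11a2 in TIN, while Col10a1 was called lower in GLAD and the double mutant and higher in TIN. Calls of Col9a3 and Col11a1 in GLAD, Col27a1 in TIN, and Col10a1 in TIN and the double mutant ended when 1 library was left out. The part of the chondrocyte list in these results was not tested. The osteoblast list (4 of 8 measured) gave 52.3 to 86.3 in the normoxic mutants, 36.2 to 56.7 in hypoxia and 52.5 to 59.5 in wild type, and Ibsp was 0 in 13 libraries.

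Type IV collagen is the mesh of basement membranes, and its common form holds chains from Col4a1 and Col4a2. Col4a1 had levels of 121 and 111 in wild type, 299 and 316 in GLAD normoxia, 372 and 426 in GLAD hypoxia, 605 and 587 in TIN normoxia, 526 and 570.4 in TIN hypoxia, 317 and 347 in double-mutant normoxia and 362 and 308 in double-mutant hypoxia. The wild-type pair lay below all other libraries and the TIN libraries above them. Col4a1 was higher than wild type by 1.41 (SE 0.09, adjusted p = 4.3e-10) in GLAD, 2.36 (SE 0.09, adjusted p = 6.3e-14) in TIN and 1.51 (SE 0.09, adjusted p = 9.8e-11) in the double mutant. In hypoxia it rose in GLAD by 0.37 (adjusted p = 0.0022, and 0.053 without GLAD hypoxia B), and its differences in TIN (-0.12) and the double mutant (0.01) were not called (adjusted p = 0.26 and 0.93).

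Col4a2 had levels of 147 and 138 in wild type, 173 and 195 in GLAD normoxia, 268 and 319.8 in GLAD hypoxia, 310.1 and 289 in TIN normoxia, 273 and 299 in TIN hypoxia, 179 and 202 in double-mutant normoxia and 245 and 225 in double-mutant hypoxia, again with wild type below all other libraries. Its increases over wild type were smaller, at 0.36 in GLAD, 1.07 in TIN and 0.41 in the double mutant (adjusted p = 0.0032, 1.5e-08 and 0.0010). It rose in hypoxia in GLAD by 0.67 (SE 0.09, adjusted p = 1.1e-05) and in the double mutant by 0.30 (SE 0.09, adjusted p = 0.0096), the latter with an adjusted p of 0.12 without double-mutant normoxia A and 0.057 with the length and GC trend removed. TIN gave -0.07 (adjusted p = 0.57), and TIN minus GLAD was -0.74 (SE 0.13, adjusted p = 0.00042).

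These 2 genes lie head to head, and their promoter windows from RefSeq (GRCm38.p6) are printed because they share sequence. In the GENCODE annotation the gene starts overlap by 22 bases on opposite strands, and reads there cannot be told apart where counting ignores strand. The Col4a1 window is chr8:11312777-11313076 on the - strand and the Col4a2 window chr8:11312555-11312854 on the + strand. Capitals mark the 78 bases that both windows cover, chr8:11312777-11312854, which read as reverse complements of each other.
Col4a1: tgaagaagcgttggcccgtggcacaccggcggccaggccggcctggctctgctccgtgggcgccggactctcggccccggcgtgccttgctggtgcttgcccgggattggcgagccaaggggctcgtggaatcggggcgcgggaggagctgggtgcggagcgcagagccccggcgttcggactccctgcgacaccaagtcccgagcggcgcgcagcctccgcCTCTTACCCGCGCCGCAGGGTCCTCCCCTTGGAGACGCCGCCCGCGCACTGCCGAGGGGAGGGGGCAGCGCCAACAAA
Col4a2: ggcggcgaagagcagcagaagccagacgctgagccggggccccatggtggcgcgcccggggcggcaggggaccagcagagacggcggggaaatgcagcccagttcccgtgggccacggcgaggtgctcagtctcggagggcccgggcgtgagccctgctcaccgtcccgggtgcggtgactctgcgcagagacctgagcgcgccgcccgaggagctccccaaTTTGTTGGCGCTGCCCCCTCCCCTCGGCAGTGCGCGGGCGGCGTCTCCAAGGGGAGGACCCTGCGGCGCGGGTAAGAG
The pair kept no fixed ratio. The ratio of Col4a1 to Col4a2 reads per kilobase of exon was 0.7296 and 0.71 in wild type, below 1, and 1.54 and 1.44 in GLAD normoxia, 1.73 and 1.803 in TIN normoxia and 1.57 and 1.53 in double-mutant normoxia, all above 1. In hypoxia it was 1.23 and 1.18 in GLAD, 1.71 and 1.69 in TIN and 1.31 and 1.21 in the double mutant, each pair below the normoxic pair of its mutant. The windows each hold 1 match to CCAAT on either strand. At least 1 match was found in 37.4% of all windows and in 10 of the 25 windows (40%) of measured collagen genes.

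Col4a5 is a chain of the type IV networks of kidney and other organs. Its levels were 189 and 126 in wild type, 134 and 142 in GLAD normoxia, 96.7 and 102 in GLAD hypoxia, 34.98 and 38.6 in TIN normoxia, 17.3 and 18.6 in TIN hypoxia, 113 and 115 in double-mutant normoxia and 34.2 and 49.2 in double-mutant hypoxia. The wild-type pair was uneven and overlapped GLAD normoxia. It fell in hypoxia in each mutant, with log2 differences of -0.48 in GLAD (adjusted p = 0.015), -1.018 in TIN (adjusted p = 2.1e-05) and -1.47 in the double mutant (adjusted p = 2.2e-07). TIN was lower than wild type by 2.05 (SE 0.15, adjusted p = 1.5e-09), and GLAD was not called (-0.16, adjusted p = 0.39). Its head-to-head neighbour Col4a6, whose start lies 1309 bases away in GENCODE, never exceeded 1.10 CPM. Col4a3 was low in all libraries, from 0.29996 to 2.72, with 0.914 and 0.589 in GLAD normoxia, 2.41 and 1.76 in GLAD hypoxia, 0.977 and 0.79996 in double-mutant normoxia and 1.76 and 2.72 in double-mutant hypoxia.

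Type VI collagen forms beaded filaments from chains of Col6a1, Col6a2 and a long chain such as that of Col6a3. Col6a3 was higher than wild type in each mutant. Its levels were 100.1 and 105 in wild type, 542 and 564 in GLAD normoxia, 1404 and 1633 in GLAD hypoxia, 819.9 and 780.2 in TIN normoxia, 625 and 652 in TIN hypoxia, 946 and 1254 in double-mutant normoxia and 1363 and 1342 in double-mutant hypoxia. The wild-type pair lay below all 12 mutant libraries. The difference from wild type was 2.42 (SE 0.10, adjusted p = 1.6e-12) in GLAD, 2.96 (SE 0.10, adjusted p = 1.8e-14) in TIN and 3.40 (SE 0.10, adjusted p = 8.9e-15) in the double mutant. In hypoxia Col6a3 rose in GLAD by 1.45 (SE 0.10, adjusted p = 2.5e-09), and was called lower in TIN (-0.33, SE 0.10, adjusted p = 0.012) and higher in the double mutant (0.31, SE 0.10, adjusted p = 0.015). The TIN call ended without TIN hypoxia A (adjusted p = 0.085), and the double-mutant call without double-mutant normoxia A (0.11, adjusted p = 0.38). The hypoxia effect of TIN was below that of GLAD by 1.78 (SE 0.15, adjusted p = 1.3e-07), and that of the double mutant was below GLAD's by 1.14 (adjusted p = 4.1e-05).

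Its partners behaved otherwise. Col6a1 had levels of 1181 and 1228 in wild type, 1315 and 1387 in GLAD normoxia, 1326 and 1458 in GLAD hypoxia, 686 and 661 in TIN normoxia, 619.6 and 641 in TIN hypoxia, 1057 and 1137 in double-mutant normoxia and 638 and 641 in double-mutant hypoxia. Col6a2 had levels of 568 and 615 in wild type, 602 and 659.9 in GLAD normoxia, 594 and 673 in GLAD hypoxia, 267 and 265 in TIN normoxia, 277 and 283 in TIN hypoxia, 402 and 439 in double-mutant normoxia and 241 and 219 in double-mutant hypoxia. Both were lower in TIN than in wild type, by 0.84 and 1.15 (adjusted p = 2.0e-08 and 7.4e-10), and both fell in hypoxia in the double mutant, by 0.78 and 0.87 (adjusted p = 7.7e-08 and 5.4e-08). In GLAD and TIN their hypoxia differences lay between -0.10 and 0.07 and were not called (adjusted p of 0.29 to 0.97). The ratio of Col6a3 to Col6a1 per kilobase was 0.03103 and 0.0314 in wild type, 0.151 and 0.149 in GLAD normoxia and 0.388 and 0.4101 in GLAD hypoxia, 0.437 and 0.432 in TIN normoxia and 0.369 and 0.372 in TIN hypoxia, and 0.328 and 0.404 in double-mutant normoxia and 0.782 and 0.766 in double-mutant hypoxia. That of Col6a1 to Col6a2 stayed between 3.79 and 5.56.

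Ratios of partner chains within a library do not depend on the scaling between libraries, but they do depend on the annotated exon length, and no test was made of them. For type I collagen the ratio of Col1a1 to Col1a2 was 3.63 and 3.85 in wild type, and went from 2.93 and 3.00 in normoxia to 3.46 and 3.72 in hypoxia in GLAD, from 3.29 and 3.12 to 4.04 and 4.24 in TIN, and from 4.94 and 5.37 to 7.49 and 7.15 in the double mutant. For type V the ratio of Col5a1 to Col5a2 was 0.453 and 0.461 in wild type, and went from 0.507 and 0.517 to 0.932 and 0.967 in GLAD, from 1.36 and 1.27 to 2.13 and 2.19 in TIN, and from 0.6103 and 0.674 to 1.46 and 1.34 in the double mutant. In both types each hypoxic pair lay above the normoxic pair of its mutant. The ratio of Col3a1 to Col1a1 was 0.0862 and 0.0745 in wild type and reached 0.622 and 0.5499 in double-mutant normoxia.

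**Figure D5:**
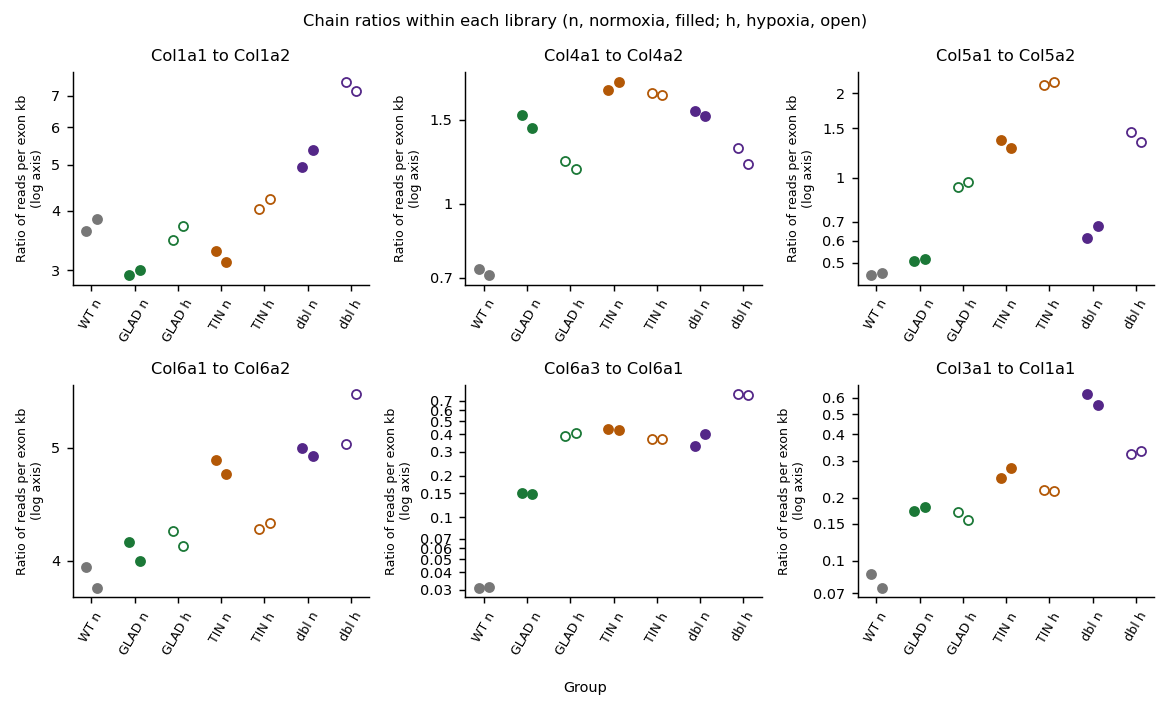
Each panel gives the ratio of 2 chains in reads per kilobase of exon (log axis) in the 14 libraries by group, filled for normoxia and open for hypoxia. The ratios of Col1a1 to Col1a2 and of Col5a1 to Col5a2 are higher in hypoxia in each mutant, that of Col4a1 to Col4a2 is lower in hypoxia and below 1 only in wild type, and that of Col6a3 to Col6a1 is lowest in wild type.

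Fibril-associated chains sit on the surface of fibrils and link them to the surroundings. Col12a1, which binds type I fibrils, had levels of 234 and 203 in wild type, 303 and 312 in GLAD normoxia, 629 and 717 in GLAD hypoxia, 98.9 and 102 in TIN normoxia, 198 and 216 in TIN hypoxia, 91.6 and 124 in double-mutant normoxia and 371 and 338 in double-mutant hypoxia. Each hypoxic pair lay above the normoxic pair of its mutant. It rose by 1.12 (SE 0.11, adjusted p = 1.9e-07) in GLAD, 1.04 (SE 0.11, adjusted p = 4.2e-07) in TIN and 1.73 (SE 0.11, adjusted p = 3.8e-10) in the double mutant. Against wild type it was higher in GLAD (0.49, SE 0.11, adjusted p = 0.0010) and lower in TIN (-1.12, SE 0.11, adjusted p = 8.6e-08) and in the double mutant (-1.03, SE 0.11, adjusted p = 3.6e-07).

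Col16a1, a chain found around fibroblasts and smooth muscle, had levels of 194 and 228 in wild type, 271 and 298 in GLAD normoxia, 533 and 589.6 in GLAD hypoxia, 171 and 156 in TIN normoxia, 373 and 373 in TIN hypoxia, 153 and 158 in double-mutant normoxia and 507 and 421 in double-mutant hypoxia. All 6 hypoxic libraries lay above the 6 normoxic libraries of the mutants and above wild type. It rose by 0.98 (SE 0.09, adjusted p = 1.4e-07) in GLAD, 1.19 (SE 0.09, adjusted p = 1.1e-08) in TIN and 1.57 (SE 0.09, adjusted p = 1.7e-10) in the double mutant, and the difference of the double mutant from GLAD was 0.59 (SE 0.13, adjusted p = 0.0060).

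The smaller fibril-associated chains had levels below 20. Col20a1 had 5.19 and 6.41 in wild type, 4.62 and 4.32 in GLAD normoxia, 14.5 and 16.6 in GLAD hypoxia, 2.25 and 3.13 in TIN normoxia, 15.7 and 18.4 in TIN hypoxia, 3.67 and 3.45 in double-mutant normoxia and 11.7 and 9.78 in double-mutant hypoxia. It had the largest called change with a mean of 2 or more in GLAD (1.69, SE 0.17) and in TIN (2.47, SE 0.17), where Col2a1 came to 2.92 with a pseudocount of 0.1, and rose by 1.46 (SE 0.17, adjusted p = 1.0e-06) in the double mutant. Col9a3, a chain of type IX collagen of cartilage, had 2.87 and 2.77 in wild type, 2.41 and 2.75 in GLAD normoxia, 4.68 and 4.08 in GLAD hypoxia, 0.899 and 0.894 in TIN normoxia, 3.36 and 3.83 in TIN hypoxia, 2.2004 and 1.35 in double-mutant normoxia and 8.49 and 8.07 in double-mutant hypoxia. It rose by 0.66, 1.55 and 1.97 in the 3 mutants (adjusted p = 0.0096, 3.2e-06 and 1.2e-07), with only Col9a3 of the 3 type IX genes measured; 6.07% of its exon sequence overlaps Tcfl5 on the other strand. Col14a1 ran from 0.0978 to 1.76, with 1.25 and 1.37 in GLAD normoxia and 0.353 and 0.308 in wild type.

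The short-chain collagens form hexagonal networks. Col10a1, the type X chain known from hypertrophic cartilage, had levels of 201 and 154 in wild type, 418 and 431 in GLAD normoxia, 282 and 312 in GLAD hypoxia, 35.5 and 37.5 in TIN normoxia, 45.1 and 46.5 in TIN hypoxia, 29.4 and 29.2 in double-mutant normoxia and 24.8 and 23.7 in double-mutant hypoxia. The GLAD libraries lay above all others, wild type next, and TIN and the double mutant below. Against wild type it was higher in GLAD (1.27, SE 0.10, adjusted p = 6.3e-09) and lower in TIN (-2.26, SE 0.10, adjusted p = 5.0e-13) and in the double mutant (-2.57, SE 0.10, adjusted p = 1.9e-13). In hypoxia it fell in GLAD by 0.52 (adjusted p = 0.00027). It was called higher in TIN (0.32, adjusted p = 0.0095, 0.072 without TIN normoxia A and 0.125 with the length and GC trend removed) and lower in the double mutant (-0.27, adjusted p = 0.025, and 0.11 without double-mutant hypoxia B).

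Col8a1, a type VIII chain of vessel and eye networks, had levels of 160.3 and 113 in wild type, 147 and 151 in GLAD normoxia, 179 and 184 in GLAD hypoxia, 89.3 and 84.2 in TIN normoxia, 89.3 and 88.9 in TIN hypoxia, 168 and 155 in double-mutant normoxia and 166 and 180.4 in double-mutant hypoxia, with the TIN libraries below all others. It was lower than wild type in TIN (-0.63, SE 0.11, adjusted p = 7.1e-05), and its hypoxia call in GLAD (0.28, SE 0.11, adjusted p = 0.041) ended when any of 8 libraries was left out (0.16 without GLAD hypoxia B). Its partner Col8a2 had levels of 12.4 and 11.4 in wild type, above all 12 mutant libraries, against 4.04 and 3.09 in GLAD, 0.34995 and 0.497 in TIN and 2.2004 and 2.05 in the double mutant in normoxia. In hypoxia its levels were 4.28 and 3.32 in GLAD, 0.251 and 0.706 in TIN and 1.35 and 1.76 in the double mutant. It fell against wild type by 1.62 in GLAD, 3.76 in TIN and 2.25 in the double mutant (adjusted p = 1.5e-05, 1.2e-10 and 2.4e-07), with -4.54 in TIN at a pseudocount of 0.1, and was not called in hypoxia in any mutant (adjusted p of 0.20 to 0.88).

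Col7a1 makes the anchoring fibrils that tie skin epithelium to the dermis. Its levels were 22.03 and 24.3 in wild type, 6.21 and 4.904 in GLAD normoxia, 10.8 and 10.4 in GLAD hypoxia, 6.495 and 5.86 in TIN normoxia, 18.3 and 20.2 in TIN hypoxia, 2.05 and 2.35 in double-mutant normoxia and 2.28 and 4.39 in double-mutant hypoxia. It fell against wild type by 1.97 in GLAD, 1.83 in TIN and 3.13 in the double mutant (adjusted p = 2.8e-07, 4.0e-07 and 3.9e-10). In hypoxia it rose by 0.89 in GLAD and 1.56 in TIN (adjusted p = 0.0016 and 4.3e-06), and the double mutant's 0.45 was not called (adjusted p = 0.068).

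The multiplexins Col18a1 and Col15a1 are basement-membrane proteins with sugar chains, and the end of the type XVIII chain is released as endostatin. Col18a1 had levels of 6.099 and 7.23 in wild type, 24.5 and 27.8 in GLAD normoxia, 28.4 and 33.3 in GLAD hypoxia, 11.5 and 9.83 in TIN normoxia, 27.5 and 26.3 in TIN hypoxia, 106 and 103 in double-mutant normoxia and 114 and 108 in double-mutant hypoxia. The double-mutant libraries lay above all others and the wild-type pair below all. The difference from wild type was 3.87 (SE 0.11, adjusted p = 6.2e-15) in the double mutant, 1.90 (SE 0.11, adjusted p = 2.1e-10) in GLAD and 0.64 (SE 0.11, adjusted p = 8.8e-05) in TIN. In hypoxia it rose in TIN by 1.30 (SE 0.11, adjusted p = 3.6e-08), and its differences in GLAD (0.23) and the double mutant (0.09) were not called (adjusted p = 0.10 and 0.51). The TIN effect exceeded that of GLAD by 1.06 (SE 0.16, adjusted p = 0.00011). Col15a1 ranged from 0.19999 to 2.16, with 1.56 and 1.95 in wild type, 1.899 and 1.59 in TIN normoxia, 0.289 and 0.294 in GLAD normoxia and 0.245 and 0.19999 in double-mutant normoxia.

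Of the membrane-bound collagens Col17a1, an epithelial attachment protein, and Col23a1 were measured, at 0.6999 to 3.07 and 0.502 to 2.52. Col17a1 rose in hypoxia in GLAD by 0.77 (adjusted p = 0.0053, and 0.052 without GLAD normoxia A) and in TIN by 0.93 (adjusted p = 0.00099). Beside the epithelial chains Col7a1 and Col17a1 stands an epithelial marker list, of which 2 of 7 genes were measured. Its summed level was 1.65 to 9.24 in the normoxic mutants, 17.8 to 63.4 in hypoxia and 2.72 to 3.95 in wild type, with Krt19 at 14.25 to 59.88 in the hypoxic group means and at 2.404 in GLAD, 8.046 in TIN and 0.2946 in double-mutant normoxia, and Epcam and Cdh1 stayed at or below 0.5023 in the 14 libraries. The part of this list in the changes of these chains was not tested. The smooth muscle list (6 of 6 measured) gave 305 and 317 in GLAD normoxia, 414 and 449 in GLAD hypoxia, 164 and 174 in TIN normoxia, 421 and 425 in TIN hypoxia, 121 and 132 in double-mutant normoxia and 187 and 196 in double-mutant hypoxia, beside the rise of Col16a1, and its part in it was not tested. Of the endothelial list (2 of 5 measured, summed 1.499 to 14.74), Emcn was 0 in all 14 libraries and Cdh5 in 7, Kdr reached 2.666, and Tek had group means of 12.24 and 11.52 in normoxic and hypoxic GLAD and 1.11 to 3.192 elsewhere. Of the myeloid genes Adgre1 was 0 in 13 libraries and Ptprc in 11, and the myeloid list (3 of 5) 23.98 to 45.6 in normoxia and 56.6 to 69.5 in hypoxia, mainly Csf1r and Cd68.

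The genes that process collagen were taken from lists of enzymes, receptors and partners. Of 19 measured genes for hydroxylation and folding, the averaged hypoxia effect was called higher for 10 and lower for 4, with a median of 0.11. P4ha1, a catalytic subunit of prolyl 4-hydroxylase, had levels of 248 and 229.7 in wild type, 247 and 268 in GLAD normoxia, 1646 and 1729 in GLAD hypoxia, 116 and 121 in TIN normoxia, 902 and 894 in TIN hypoxia, 362 and 368 in double-mutant normoxia and 1791 and 1494 in double-mutant hypoxia. It rose by 2.60 (SE 0.05, adjusted p = 1.9e-18) on average, P4ha2, another catalytic subunit, by 2.62 (SE 0.05, adjusted p = 1.4e-18), and Plod2, a lysyl hydroxylase, by 2.65 (SE 0.06, adjusted p = 3.7e-17). All 6 hypoxic libraries lay above all 8 normoxic ones for P4ha1, P4ha2 and Plod2. They were named for the largest called averaged hypoxia differences of the list, so this separation follows in part from the choice. The share of all genes with it was not counted. Beside these enzyme transcripts, Col1a2, Col5a2 and Col4a5 fell in all 3 mutants in hypoxia, and 6 other measured collagen genes rose in all 3.

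Of 12 measured genes for procollagen cleavage and crosslinking, 3 were called higher and 5 lower on average in hypoxia (median -0.10). Loxl2, a lysyl oxidase that crosslinks collagen, went from 15.2 and 14.1 to 213 and 229.6 in GLAD, from 6.95 and 7.397 to 158 and 159.8 in TIN and from 24.98 and 24.9 to 363 and 293 in the double mutant, a rise of 3.98 (SE 0.06, adjusted p = 8.4e-20) on average. Lox rose by 1.30 (SE 0.07, adjusted p = 1.4e-11), and Loxl1 fell by 0.99 (adjusted p = 3.4e-12). Within the double mutant 2 of these 12 genes were called higher and 8 lower in hypoxia, beside 25.8% and 30.2% of all genes. Against wild type 2 were higher and 8 lower in TIN (31.4% and 28.8% of all genes), 1 and 8 in the double mutant (28.2% and 28.6%) and 2 and 5 in GLAD (26.9% and 28.3%).

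Of 12 measured receptors and breakdown enzymes 7 were called higher and 4 lower on average in hypoxia (median 0.22). Mmp13, a collagenase, rose by 1.51 on average (SE 0.08, adjusted p = 7.0e-12), but unevenly. Its levels went from 11.1 and 12.8 to 36.7 and 34.3 in GLAD. They went from 8.44 and 9.28 to 49.9 and 53.0 in TIN, and from 104 and 103 to 125 and 174 in the double mutant. In wild type Mmp13 had 0.605 and 0.770. Mmp14, a membrane-bound collagenase, fell by 0.87 (adjusted p = 1.9e-12), and Ddr2, a receptor for fibrillar collagen, fell by 0.80 (adjusted p = 1.7e-09). Of 14 measured basement-membrane partners 10 were called higher and 3 lower (median 0.37). Among the higher ones were the laminin chains Lamb3 (2.11) and Lamc3 (0.98). Lamb3 had 0 to 0.8658 in the normoxic mutants and 2.52 and 2.36 in wild type. Lamc3 was also low, with 0.0993 to 0.736 in the normoxic mutants, and had 1.10 and 0.303 in TIN hypoxia. Beside these counts stand 30.6% of all genes called higher and 37% called lower in the averaged comparison. In normoxia 17 of the 19 hydroxylation and folding genes were lower and 2 higher in TIN than in wild type, beside 28.8% and 31.4% of all genes.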

How the data were processed

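Bulk RNA sequencing of 14 libraries in 7 groups was deposited as CPM per Ensembl gene by the authors, with reads aligned by STAR and counted by HTSeq on GRCm38.p4 (mm10), per the submitters' processing notes; versions, strand setting and annotation release are not given in the sources used here. Every value column had a sample (0 had none). Symbols came from the gene name table. Genes with 1 CPM or more in 2 or more libraries were kept, CPM were divided by TMM factors (trims of 30.0% and 5.0%), and log2(value + 0.5) was fitted with limma 3.58.1 in R 4.3.3 over 7 group means (7 residual and 10.9 prior degrees of freedom, with trend). P-values were adjusted by Benjamini-Hochberg over all genes in each of 13 comparisons, and 0.05 was the threshold for a call. All adjusted p-values in the text are from these limma fits or their alternatives, and rest on 2 libraries a group. The scripts were tested on simulated data. Read numbers were estimated from the steps between low CPM values. This recovery did not pass a check for whole reads, so read numbers, the floor and voom's values rest on an estimate, and the planned count-based quasi-likelihood test was not run; limma's voom on recovered reads was added after seeing the data, as was a fit without both wild-type libraries.

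Members and lists were chosen with earlier results of these data known. Library values are given for measured genes with a mean of at least 20 CPM and for the 2 genes with the largest called difference (mean of at least 2 CPM) in each hypoxia and wild-type comparison; of each pathway list the 3 genes with the largest called averaged hypoxia difference are named, except 1 that is not reported here. Lengths per kilobase are GENCODE M21 exon unions, and promoters are from RefSeq. Pseudocounts of 0.1 and 1, no filter, a filter of 5 CPM, no TMM scaling, smaller fits, a replicate block, a length and GC correction and leaving out each library were tried.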

Additional observations from a re-analysis of the deposited data

Results flagged for a closer look

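The hypoxia effect differed between mutants by a test of the difference itself for 10 of the 30 measured collagen genes between TIN and GLAD (33.3%, no more than the 33.9% of all genes), for 12 between the double mutant and GLAD (40% against 14.6%), and for 16 between the double mutant and TIN (53.3% against 42.8%), by limma with an adjusted p under 0.05. These comparisons share libraries of the same mutants.

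Col6a3 and Col10a1 were called in opposite directions in different mutants. For Col6a3 the hypoxia effect of TIN minus that of GLAD was -1.78 (log2), and that of the double mutant minus that of TIN was 0.64. For Col10a1 the corresponding values were 0.84 and -0.59. The opposite calls of Col6a3 in TIN and of Col10a1 in TIN and the double mutant each ended when 1 library was left out.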

How the results depend on the processing

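Of 253 called effects of collagen genes over the 13 comparisons, 201 kept their direction and call under all 24 alternatives in which they could be tested, 52 lost the call under at least 1, and 0 reversed. Most calls were lost with no filter on low values (30). The number of genes called for the hypoxia effect of TIN minus that of GLAD was 10, and became 6 with no filter on low values and 16 with only the groups compared; the cause was not tested. Leaving out each library in turn gave 13 to 21 called genes for hypoxia in GLAD, 13 to 18 in TIN, 16 to 19 in the double mutant and 21 to 23 on average. It gave 7 to 13 for TIN minus GLAD, 10 to 15 for double mutant minus GLAD and 12 to 18 for double mutant minus TIN. Against wild type it gave 18 to 21 in GLAD, 24 to 26 in TIN and 21 to 23 in the double mutant, and between mutants in normoxia 25 to 28 for TIN against GLAD, 17 to 21 for the double mutant against GLAD and 20 to 23 against TIN. Where this leaves 1 library in a group, that library is assumed to vary like the other groups. The planned count-based test was not run.

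The labels do not say whether the letters A and B pair the libraries. Correlations of same-letter deviations between groups ran from -0.15 to 0.30, and such values cannot decide it. The highest was between GLAD normoxia and GLAD hypoxia. With the letter as a replicate block, 20, 16 and 19 genes were called for hypoxia in GLAD, TIN and the double mutant, 23 on average, 19, 26 and 24 against wild type, and 0 of the 253 calls was lost. Depth limits the genes near the floor of 3 reads, such as Col2a1, Col14a1 and Col15a1.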
